A study of Mus musculus with 8 samples.

Results

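Oxidative phosphorylation is carried out by 5 enzyme complexes of the inner mitochondrial membrane, and their subunit genes are described here in Th17 cells that express 1 of 2 forms of ROR-γt. Members were found by gene symbol: the mt-Nd, mt-Co, mt-Atp and mt-Cytb genes of the mitochondrial genome, and the Nduf, Sdh, Uqcr, Cox4 to Cox8 and Atp5 genes of the nucleus, without pseudogenes and without Ndufaf genes, which encode assembly factors. Of the 22829 genes listed, 109 symbols had a matching start. After 7 pseudogenes, 8 Ndufaf genes and 3 genes with a mean under 10 normalized counts were left out, 91 remained among the 16982 genes that reached this mean. They comprised 13 genes of the mitochondrial genome and 78 nuclear genes. By complex, the mitochondrial and nuclear members numbered 7 and 36 in complex I, 0 and 4 in complex II, 1 and 8 in complex III, 3 and 14 in complex IV, and 2 and 16 in complex V. Atp5s and Cox7a2l matched by name, although they are not structural subunits of the complex with which they were counted.

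CD4+ T cells taken from the spleens of ROR-γt−/− mice were given back ROR-γt by lentivirus and cultured to become Th17 cells. The WT group (4 samples) received WT-ROR-γt. The K187R group (4 samples) received K187R-ROR-γt, in which the lysine that carries SUMO is replaced by arginine. The background was therefore shared: per the paper, the cells of both groups came from ROR-γt−/− mice and were treated with a lentivirus. Neither an untransduced sample nor cells with native ROR-γt were analysed here. The age of the mice, the number of animals behind a sample and the share of transduced cells are not given in the sources used here, and the deposited design text speaks of WT and mutant mice. Nothing says that the samples of a group came from separate cultures or animals, so p-values measure only the spread between these samples, part of which may be technical. Counts of Xist ran from 10.1 to 17290 within WT and from 3.56 to 17373 within K187R, so neither group consists of repeats of 1 source.

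Complexes I to IV form the respiratory chain. Complexes I and II pass electrons from NADH and succinate to ubiquinone, complex III passes them on to cytochrome c, and complex IV hands them to oxygen. Complexes I, III and IV pump protons as they do so, and complex V, the ATP synthase, makes ATP from the proton gradient. The mitochondrial genome encodes core subunits of complexes I, III, IV and V and is read as long transcripts that are cut into separate RNAs. All subunits of complex II and most subunits of the others are encoded in the nucleus, so that building the chain draws on both genomes. Activated T cells, Th17 cells among them, use glycolysis as well as respiration.

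The values are normalized counts, the reads counted on a gene divided by 1 size factor per sample. Between 52456804 and 74676721 reads per sample lay on genes, and 3 reads, taken as the floor of detection for counting error, correspond to 2.54 to 3.56 normalized counts. T-cell markers were abundant in every sample (Cd3e 20844 to 27404, Cd4 15147 to 20882), and the Th17 cytokine gene Il17a had 2087 to 6075. All 5 markers of myeloid cells were also present, with summed counts of 20336 to 61225 in WT and 35204 to 64257 in K187R. B-cell markers summed to 301 to 1596 and CD8 T-cell markers to 387 to 1141, whereas the NK-cell and erythroid lists stayed below 54 in every sample. Clustering without the subunit genes and the other mt- genes placed WT replicates 1 and 3 with K187R replicate 1, WT replicate 2 with K187R replicates 2 and 3, and the samples numbered 4 together. These 3 sets of samples were defined after the data were seen. The samples of the second set had 13564 to 17373 normalized counts of Xist and the others 3.56 to 23.7, and the main medians and many of the single genes are given without them too. Values for the smaller lists are given with the sample set in the model instead. In bulk RNA, fewer cells of a type and less RNA per cell cannot be told apart.

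The 13 genes of the mitochondrial genome fell into a high and a low range. Per kilobase of exon, mt-Co1 (complex IV, the subunit that holds the oxygen-reducing centre) was the most abundant of all 91 members with 552822 normalized counts. It was followed by mt-Cytb of complex III with 213760, and by mt-Nd1 with 183020, mt-Nd5 with 123168, mt-Nd2 with 112901, mt-Nd4 with 72501 and mt-Nd6 with 42426, all of complex I. The remaining 6 genes lay far below: mt-Co2 with 4423, mt-Atp6 with 1902, mt-Co3 with 1754, mt-Atp8 with 1221, mt-Nd3 with 760 and mt-Nd4l with 386 per kilobase. The mean of mt-Co1 was thus 125 times that of mt-Co2 and 1432 times that of mt-Nd4l, although these genes are read from the same strand of the same genome. A mean of 10000 normalized counts, set after the values were seen, separates the 7 genes from the 6.

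The low genes were, with the exception of mt-Atp8, those whose sequence is present a second time in the nuclear genome. Each member was cut into windows of 75 bases, the length of a read, and each window was looked up in the annotated transcripts of all other genes. Per the paper the reads were sequenced in pairs. The other read of a pair was not considered, so the share of windows is not the share of pairs without a single place. For mt-Co3 99.9% of the windows occurred unchanged elsewhere, for mt-Co2 and mt-Atp6 99.5% each, for mt-Nd4l 98.7% and for mt-Nd3 97.8%. The share was 61.5% for mt-Nd4, 39.8% for mt-Co1, 5.71% for mt-Nd2, 1.66% for mt-Nd5 and 0 for mt-Nd1, mt-Nd6, mt-Cytb and mt-Atp8. The main partners are unprocessed pseudogenes that lie side by side on chromosome 1 of GRCm38, from Gm28439 (24611535 to 24612410) to Gm29216 (24615706 to 24616197). The first 681 of 684 bases of mt-Co2 are those of Gm28661 without a difference, as are the first 783 of 784 of mt-Co3 in Gm28437, 678 of 681 of mt-Atp6 in Gm10925, 294 of 297 of mt-Nd4l in Gm10222 and 876 of 1378 of mt-Nd4 in Gm28439. Over the 345 bases that mt-Nd3 has in common with Gm28438 the only substitution is T3C, counted from the first base of mt-Nd3.

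A read from these stretches, taken without the other read of its pair, carries nothing that says which genome it came from. The following 75 bases show this for mt-Co2 (M, 7313 to 7387, plus strand) and Gm28661 (chromosome 1, 24615191 to 24615265, minus strand), and show for comparison a stretch of mt-Cytb (M, 14445 to 14519, plus strand), which was found in no other annotated transcript. They are written from the GENCODE transcripts of GRCm38 in the 5′ to 3′ direction, and no capitals are used since every base of the first pair is alike.
mt-Co2: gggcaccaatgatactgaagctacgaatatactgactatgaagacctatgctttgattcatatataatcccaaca
Gm28661: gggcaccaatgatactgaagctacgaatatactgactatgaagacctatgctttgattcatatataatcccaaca
mt-Cytb: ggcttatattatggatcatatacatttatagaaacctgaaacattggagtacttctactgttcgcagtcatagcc

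Reads were also listed on the nuclear copies themselves, with means over the 8 samples of 1635 normalized counts for Gm10925 and 1107 for Gm28437 beside 1295 for mt-Atp6 and 1375 for mt-Co3. How the counting treated reads with several matching places is not given in the sources used here, so the level of the 5 mitochondrial genes with over 97% shared windows is uncertain, and what part shared sequence has in their low counts was not tested. For mt-Atp8, 21.1% of whose bases overlap mt-Atp6, no annotated copy was found. The pseudogenes on chromosome 1 leave an unannotated gap between Gm10925, which ends at 24614651, and Gm28661, which starts at 24614885, and the sequence of this gap was not analysed here.

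**Figure D1:**
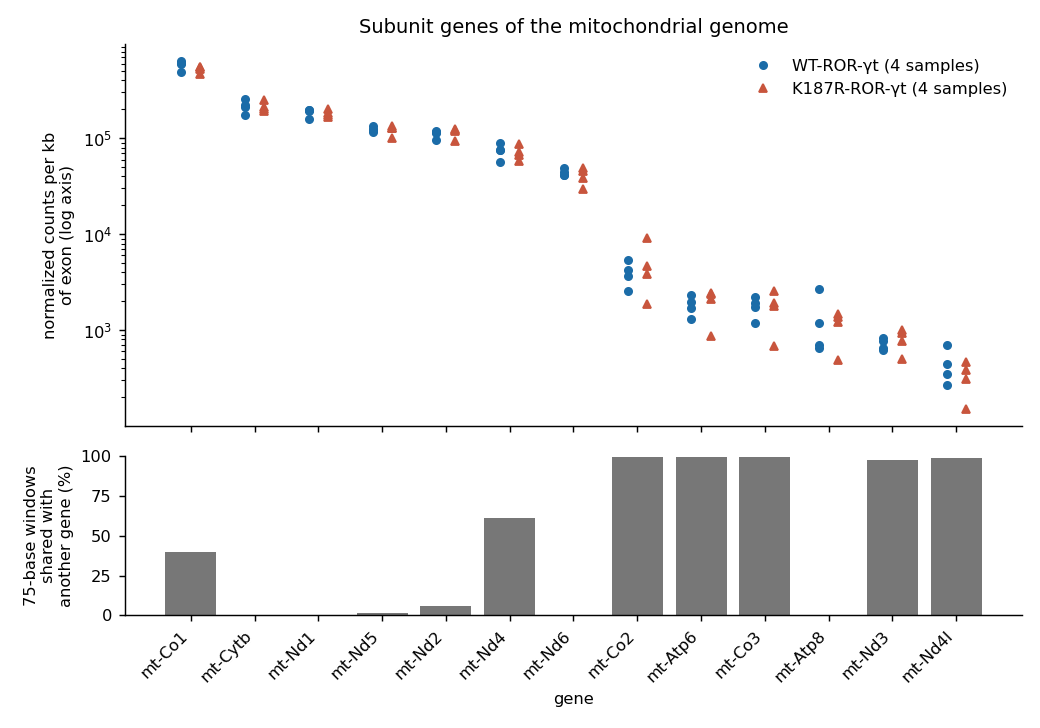
The 13 subunit genes of the mitochondrial genome, ordered by level. The upper panel gives normalized counts per kilobase of exon on a log axis, circles for the 4 WT-ROR-γt and triangles for the 4 K187R-ROR-γt samples; the lower panel gives the percentage of 75-base windows that occur in another annotated gene. The 7 genes on the left lie above 10000 in every sample and the 6 on the right below it, 5 of which have over 97% of their windows in common with a nuclear copy.

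Between Th17 cells expressing WT-ROR-γt and K187R-ROR-γt, no gene of the mitochondrial genome differed beyond the spread between samples. mt-Co1 had 917003, 755666, 931047 and 977322 normalized counts in WT and 858053, 810587, 728026 and 855172 in K187R. The groups overlapped, and the log2 fold change, K187R minus WT on the log2(normalized count + 1) scale, was -0.14 (SE 0.121, adjusted p = 0.922 from limma). mt-Cytb had 241270, 199823, 251673 and 293486 in WT and 239591, 229111, 217481 and 283894 in K187R, a log2 fold change of -0.018 (SE 0.134). Its highest value in each group was that of the sample numbered 4. The log2 fold changes of the 5 mt-Nd genes in the high range lay between -0.13 for mt-Nd6, the only subunit gene read from the opposite strand, and 0.034 for mt-Nd2, and the lowest limma p-value among the 13 genes was 0.289, unadjusted. None of the 13 genes separated the groups.

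The low genes varied far more between samples. mt-Co2 had 3697, 2531, 1755 and 2889 normalized counts in WT and 6245, 3167, 1274 and 2645 in K187R, so that the highest sample and the lowest sample were both of the K187R group. mt-Nd4l had 133, 104, 79.5 and 208 in WT and 140, 115, 45.3 and 92.5 in K187R, the most negative log2 fold change of all members (-0.44, SE 0.389, adjusted p = 0.922 from limma), which was -0.19 without the second set of samples. K187R replicate 3 was the lowest of the 8 samples for all 6 low genes and for 4 of the 7 high ones. The ratio of the highest to the lowest sample was 2.01 to 5.56 for the low genes and 1.28 to 1.66 for the high genes, and the median coefficient of variation within a group was 26.9% in WT and 40.1% in K187R for the low against 10.1% and 12.2% for the high genes. The nuclear copies also had their lowest counts in that sample in several cases, Gm10925 with 904 (1060 to 2400 in the other 7 samples) and Gm28661 with 477 (643 to 1512 in the others). Without K187R replicate 3 the median log2 fold change of the 13 genes turned from -0.038 to 0.054.

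Among nuclear members the 2 large subunits of the catalytic head of the ATP synthase were the most abundant, Atp5a1 with 11329 and Atp5b with 10358 normalized counts per kilobase of exon. In complex IV the highest were Cox7a2l, a factor that joins complexes into supercomplexes, with 8564 and Cox4i1, the form of subunit 4 found in most tissues, with 7909. In complex III they were Uqcrh, the hinge protein, with 6515 and Uqcrfs1, the Rieske iron-sulfur protein, with 4056, and in complex I the accessory subunits Ndufb11 with 4414 and Ndufc2 with 4240. In complex II the flavoprotein gene Sdha had 3771, the iron-sulfur protein gene Sdhb 2204 and the membrane anchors Sdhc and Sdhd 1210 and 3407. The median over the nuclear members was 1608 in complex I, 2805 in II, 3336 in III, 3306 in IV and 2635 in V. Every high-range mitochondrial gene exceeded every nuclear member, as the lowest of them, mt-Nd6 with 42426, lay above Atp5a1. The length used is the union of all annotated exons of a gene, and it lowers the per-kilobase level of genes with long rare transcripts. At most 35.8% of the windows of a nuclear member (Atp5g2) occurred in another gene, and 40 of the 78 had none.

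Isoforms known from muscle, testis or lung were low or under the mean of 10. Cox7a1, the heart and muscle form of subunit 7a, averaged 29.1 ± 4.50 normalized counts in WT samples and 23.2 ± 4.80 in K187R samples, whereas its common counterpart Cox7a2 had 3982 ± 498 and 3321 ± 370 (SD, n = 4 each). Cox6b2, a testis form, had 107 ± 9.41 in WT and 102 ± 8.70 in K187R (SD, n = 4 each). Cox6a2, another muscle form, averaged 7.69 over the 8 samples and reached 12.4 in K187R replicate 1. Cox4i2 and Ndufa4l2, genes induced by low oxygen in some tissues, had means of 1.57 and 1.73, which correspond to a few reads at most and are near or under the floor of 3 reads.

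Of the 78 nuclear members 76 had a lower mean log2 value in Th17 cells expressing K187R-ROR-γt, by small amounts, and none passed the test. The exceptions were Ndufa13 (0.026) and Sdha (0.0084). A lower mean was found for 51.6% of all 16982 genes tested. The median log2 fold change was -0.12 over the nuclear members, -0.038 over the mitochondrial ones and -0.0062 over all genes tested, and the nuclear members ranged from -0.33 to 0.026. With limma, 0 of the 91 members and 0% of all genes had an adjusted p-value under 0.05, and the lowest adjusted p of a member was 0.921. At an unadjusted p-value under 0.05 from limma, 3 of the 91 members remained (3.30%), all lower in K187R. Among all 16982 genes tested, 746 had such a p-value in either direction. Of these, 279 (1.64% of all genes) were lower in K187R. DESeq2 on the recovered reads called 0.227% of the 13682 genes to which it gave an adjusted p-value and 0 members. With edgeR 0 of both were called. In each tool 3 members had an unadjusted p-value under 0.05, beside 843 of all genes in DESeq2 and 729 in edgeR.

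The nuclear genes varied together from sample to sample, so that their directions are not separate observations. The mean deviation of the nuclear members from their own 8-sample means was 0.093, -0.018, 0.18 and -0.0054 in WT replicates 1 to 4 and -0.015, -0.23, -0.078 and 0.077 in K187R replicates 1 to 4, on the log2 scale. The groups overlapped: K187R replicate 4 was above WT replicates 2 and 4. WT replicates 1 and 3 together held the highest value of 59 of the 78 genes, and K187R replicate 2 held the lowest of 54. Without K187R replicate 2 the median log2 fold change was -0.075 with 61 of 78 lower, and without WT replicate 3 it was -0.086 with 66 lower. Within the sets of samples it was -0.077 with 71 lower, and without the samples of the second set it was -0.052 with 62 lower. Without the samples numbered 4 it was -0.19, with 77 lower.

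Myeloid markers moved with these values in part. Their summed counts were 20336, 49069, 20599 and 61225 in WT replicates 1 to 4 and 35204, 42868, 46425 and 64257 in K187R replicates 1 to 4, and 5 of 5 had a higher mean in K187R, none past the test. The samples with the fewest myeloid counts, WT replicates 1 and 3, were those with the highest nuclear subunit levels. The samples numbered 4 had the most myeloid counts, with nuclear levels of -0.0054 in WT and 0.077 in K187R. The latter was the highest nuclear level of the K187R group, so the inverse order did not hold within K187R. Most of each sum was Lyz2 (54522 in WT replicate 4). Cd68 and Itgam were also highest in the samples numbered 4. Csf1r and Adgre1 were highest in K187R replicate 3, Csf1r with 5074 there against 2598 and 2423 in the WT and K187R samples numbered 4. The part of these cells in the result was not tested.

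**Figure D2:**
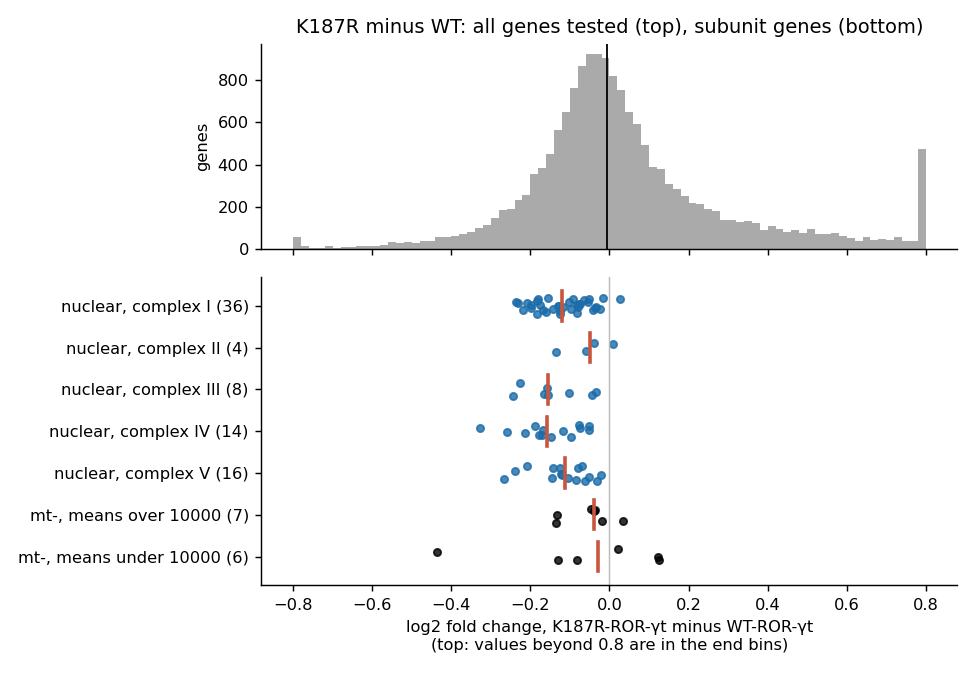
Log2 fold changes, K187R-ROR-γt minus WT-ROR-γt. The upper panel is a histogram of the 16982 genes tested with its median as a line at -0.0062; in the lower panel each point is 1 subunit gene, in rows for the nuclear members of each complex and for the mt- genes with means above and below 10000 normalized counts, and the bar is the median of the row. All medians lie left of 0, and the points lie within the width of the distribution of all genes.

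By complex, the median log2 fold change was -0.16 in complex IV (14 of 14 lower) and in complex III (8 of 8 lower), -0.12 in complex I (35 of 36), -0.11 in complex V (16 of 16) and -0.050 in complex II (3 of 4). The differences between complexes were not tested. With the sample set in the model these medians were -0.11 for complexes III and IV, -0.065 for complex I, -0.071 for complex V and -0.014 for complex II.

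For 3 nuclear members, 3.30% of the 91, every K187R sample lay below every WT sample, and for 0 the reverse held. Among all genes tested the shares were 0.989% below and 1.47% above. Atp5l (chromosome 9, 44912557 to 44920742, minus strand), which encodes the g subunit of the ATP synthase membrane part, had 3093, 2910, 2968 and 2570 normalized counts in WT and 2309, 2443, 2472 and 2547 in K187R. The lowest WT and the highest K187R value were close and both belonged to samples numbered 4. Its log2 fold change was -0.24 (SE 0.0783, unadjusted p = 0.0134, adjusted p = 0.921 from limma), and 6.16% of its windows occur in processed pseudogenes and other genes, 21 in number.

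Ndufab1 (chromosome 7, 122085403 to 122101886, minus strand) encodes the mitochondrial acyl carrier protein, a complex I subunit that also serves fatty acid synthesis and iron-sulfur cluster assembly. It had 2598, 2489, 2453 and 2382 in WT and 2251, 2194, 2178 and 2164 in K187R, which was the tightest grouping of any member in K187R. The log2 fold change was -0.17 (SE 0.0642, unadjusted p = 0.0228, adjusted p = 0.921 from limma). Atp5j (chromosome 16, 84827866 to 84835625, minus strand), coupling factor 6 of the ATP synthase, had 6275, 5912, 6282 and 5892 in WT and 5746, 5521, 5521 and 5863 in K187R, with a log2 fold change of -0.10 (SE 0.0604, adjusted p = 0.921 from limma). It shares its start region with Gabpa on the other strand, and 12.7% of its exonic bases overlap another gene there.

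Cox7a2 (chromosome 9, 79755361 to 79759878, minus strand) was the other member with an unadjusted p-value under 0.05. It had 4367, 4149, 4163 and 3250 in WT and 3780, 2896, 3205 and 3403 in K187R, so the groups overlapped through WT replicate 4. The log2 fold change was -0.26 (SE 0.115, unadjusted p = 0.0490, adjusted p = 0.921 from limma), and -0.12 without the second set of samples. The remaining members with the most negative values were Cox7a1, -0.33 (SE 0.242) at a mean of under 30 normalized counts, and Atp5e, the epsilon subunit of the ATP synthase, -0.27 (SE 0.131). Atp5e had 3660, 3583, 4054 and 3205 in WT and 3343, 2298, 3144 and 3362 in K187R, and K187R replicate 2 stood below the rest. Its log2 fold change was -0.14 without that sample and -0.11 without the second set.

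The abundant subunits differed by small amounts. Atp5a1, the alpha subunit that with beta forms the catalytic head, averaged 36202 ± 2999 normalized counts in WT samples and 34833 ± 1487 in K187R samples (SD, n = 4 each). Atp5b, the beta subunit, had 45850 ± 5682 and 41928 ± 2540, and Cox4i1 12663 ± 787 and 11856 ± 1178 (SD, n = 4 each). Uqcrh had 8745 ± 1193 and 7373 ± 861 and Uqcrfs1 5853 ± 630 and 5203 ± 424 (SD, n = 4 each), with log2 fold changes of -0.24 (SE 0.120) and -0.17 (SE 0.0956). Ndufb11 was at -0.22 (SE 0.128), Ndufc2 at -0.16 (SE 0.0967) and Cox7a2l at -0.051 (SE 0.0719). None of these genes passed the test, with adjusted p-values of 0.921 to 0.935 from limma. Without the second set of samples the log2 fold changes were -0.072 for Uqcrh, -0.090 for Uqcrfs1, -0.13 for Ndufb11, -0.078 for Ndufc2 and -0.029 for Atp5a1, and those of Cox4i1 and Cox7a2l turned to 0.012 and 0.055.

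Complex II, the complex with no mitochondrially encoded subunit, also belongs to the citric acid cycle. Sdha had 16221, 15333, 15891 and 14624 normalized counts in WT and 15618, 15611, 16011 and 15156 in K187R, the narrowest range of all members with a highest-to-lowest ratio of 1.11. Sdhb had 5511, 4610, 5548 and 4993 in WT and 5069, 4210, 4401 and 5134 in K187R, a log2 fold change of -0.14 (SE 0.0943, adjusted p = 0.921 from limma). Sdhc and Sdhd were at -0.059 (SE 0.0927) and -0.040 (SE 0.0688). Without the second set the values were -0.067 for Sdhb, 0.013 for Sdhc, 0.0058 for Sdhd and -0.017 for Sdha. The groups overlapped for all 4 genes.

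Ndufa13, a complex I subunit also known as GRIM-19, had 3444, 3244, 4035 and 4072 in WT and 3834, 3208, 3873 and 4136 in K187R. The log2 fold change was 0.026 (SE 0.107, adjusted p = 0.980 from limma). Its direction turned when K187R replicate 4 (-0.022), WT replicate 1 (-0.0064) or WT replicate 2 (-0.035) was left out, and 25.6% of its windows also occur in Tssk6.

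**Figure D3:**
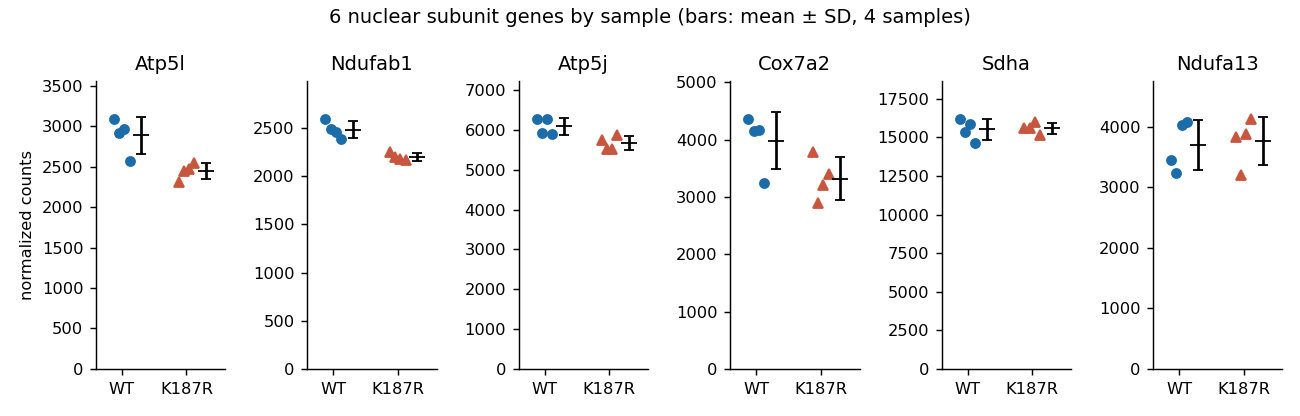
Normalized counts of 6 nuclear subunit genes in each sample, on axes that start at 0. Circles are WT-ROR-γt and triangles K187R-ROR-γt samples, and the bars beside them give the mean ± SD of 4 samples. The groups do not overlap for Atp5l, Ndufab1 and Atp5j, they overlap through 1 WT sample for Cox7a2, and they cover the same range for Sdha and Ndufa13.

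The 2 genomes were then compared within each sample. The 13 subunit genes of the mitochondrial genome held 2.96%, 2.49%, 2.93% and 3.31% of all normalized counts in WT replicates 1 to 4 and 2.88%, 2.77%, 2.43% and 3.06% in K187R replicates 1 to 4. Nuclear subunit genes held 0.668%, 0.626%, 0.686% and 0.631% in WT and 0.628%, 0.556%, 0.600% and 0.663% in K187R. The ratio of the mitochondrial to the nuclear sum averaged 4.48 ± 0.542 over the WT samples and 4.56 ± 0.386 over the K187R samples (SD, n = 4 each). It was highest in WT replicate 4 with 5.24 and lowest in WT replicate 2 with 3.98, so the range within WT contained every K187R sample.

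On the log2 scale, where each gene counts the same, the mean of the mitochondrial members minus that of the nuclear members was 0.061, 0.053, -0.28 and 0.030 in WT and 0.26, 0.32, -0.55 and 0.10 in K187R, each relative to the 8-sample mean. The difference between the groups, 0.065, was smaller than the SD within either group (0.16 in WT and 0.40 in K187R). With the 7 high genes alone it was 0.070, and the sample values were 0.0050, -0.17, -0.12 and 0.15 in WT and 0.051, 0.20, -0.19 and 0.082 in K187R. The high mitochondrial genes and the nuclear genes deviated to the same side in 6 of the 8 samples, and by about the same amount in WT replicate 1 (0.098 and 0.093). The extremes lay in different samples: WT replicate 3 had the highest nuclear level (0.18) beside a mitochondrial one of 0.055, K187R replicate 2 the lowest nuclear level (-0.23) beside -0.034, and K187R replicate 3 the lowest mitochondrial level (-0.27) beside -0.078.

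**Figure D4:**
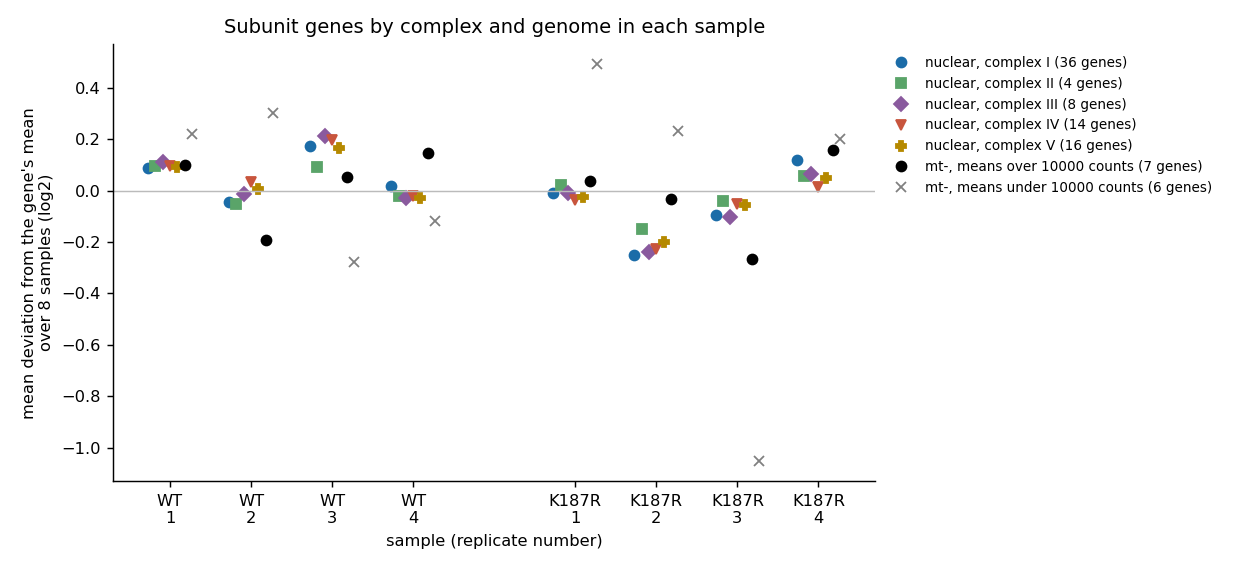
Mean deviation of each group of subunit genes from the genes' own means over the 8 samples (log2), for each sample. Coloured symbols are the nuclear members of complexes I to V, black circles the 7 mt- genes with means above 10000 normalized counts and grey crosses the 6 below. The nuclear complexes lie close together in every sample and the black circles apart from them in most, and the lowest cross, at -1.05, is K187R replicate 3.

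The deviations of the nuclear members lay mostly along 2 components. A decomposition of the 78 genes by 8 samples gave a first component with 60.2% of the variation, highest in WT replicate 3 and lowest in K187R replicate 2, on which 76 genes scored above 0 and 2 below, and a second with 27.0%, highest in WT replicate 4 and K187R replicate 3 and lowest in WT replicates 1 and 2. Over the 78 genes, which share the same 8 libraries, scores on the first component had a Pearson correlation of 0.36 with the GC content of the transcripts and of -0.34 with log2 exon length. On the second component these correlations were 0.77 and 0.0023. Cox8a (GC content 58.6%), Ndufs7 (59.2%) and Ndufa11 (58.3%) had the highest scores on the second component, and Uqcrh (48.7%), Ndufa1 (47.5%) and Cox7a2 (43.6%) the lowest.

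Within single samples the correlation of a gene's deviation with its GC content was -0.72, -0.65, 0.31 and 0.70 in WT replicates 1 to 4 and -0.20, -0.42, 0.63 and 0.49 in K187R replicates 1 to 4, over the 78 genes. Over 16958 genes tested that have a GC value it had the same sign in each sample and was weaker: -0.23, -0.24, 0.096 and 0.23 in WT and -0.14, -0.14, 0.30 and 0.088 in K187R. The sign differed between samples of the same group, and base composition cannot be told apart here from other properties that go with it. The 26 nuclear members with the lowest GC content (41.3% to 49.2%) had a median log2 fold change of -0.17 with 26 lower, the 26 in the middle -0.093 with 25 lower, and the 26 with the highest (53.9% to 60.8%) -0.077 with 25 lower.

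**Figure D5:**
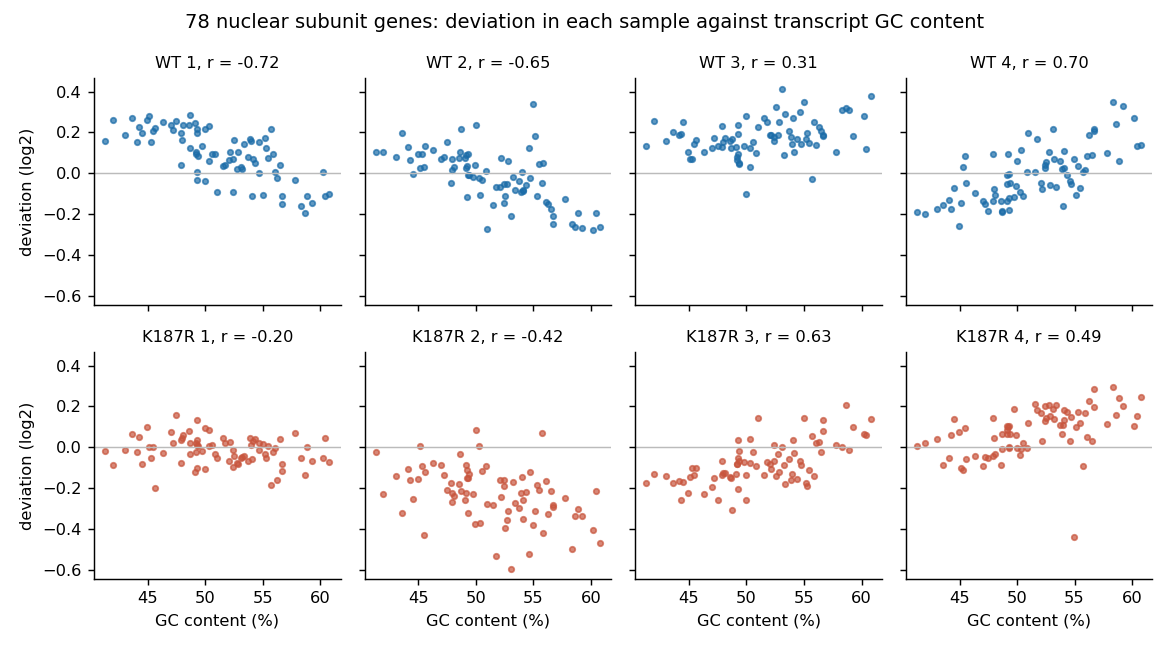
Deviation of the 78 nuclear subunit genes from their 8-sample means (log2) against the GC content of their transcripts (%), 1 panel per sample, WT-ROR-γt above and K187R-ROR-γt below, with Pearson's r. The cloud falls with GC content in WT 1 (r = -0.72) and WT 2 and rises in WT 4 (r = 0.70) and K187R 3, so the slope differs within each group.

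The nuclear members lie on 19 chromosomes, and their promoters were searched for letters known as binding motifs of regulators of respiratory genes. RefSeq promoter windows of GRCm38.p6, 250 bases before to 50 bases after the gene start, were at hand for 67 of the 78 genes (72 windows), 65 by symbol and Atp5f1 and Atp5s by synonym. The windows of the remaining nuclear members were not analysed. GCGCANGCG, the motif of NRF1, was found on either strand in 20 of the 67 genes, or 29.2% of their windows, against 6.25% of all 32851 windows and 12.3% of the windows of genes tested. CCGGAAG, the core bound by ETS factors such as GABP, was found in 16 genes and 22.2% of windows, against 8.86% and 16.7%. AANATGGCG, the motif of YY1, was found in 10 genes and 13.9% of windows, against 2.38% and 4.66%. At least 1 of these motifs was found in 38 of the 67 genes (56.7%), against 33.8% of the genes tested that have a window. No motif overlapped another in these windows. For each motif the 2 carriers with the highest level per kilobase are shown 5′ to 3′ on the strand of the gene, with the matching letters in capitals.
Atp5c1, NRF1: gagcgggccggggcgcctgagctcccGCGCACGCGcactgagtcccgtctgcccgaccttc
Cox6a1, NRF1: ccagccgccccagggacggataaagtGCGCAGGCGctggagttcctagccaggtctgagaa
Cox6b1, ETS: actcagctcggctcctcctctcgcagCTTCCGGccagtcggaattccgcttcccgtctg
Uqcrh, ETS: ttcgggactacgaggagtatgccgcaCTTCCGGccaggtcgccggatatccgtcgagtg
Atp5b, YY1: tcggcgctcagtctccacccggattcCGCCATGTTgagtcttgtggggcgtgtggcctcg
Ndufb11, YY1: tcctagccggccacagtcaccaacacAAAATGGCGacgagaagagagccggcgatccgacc

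These stretches lie at chr2:10080415-10080475 (Atp5c1), chr5:115349041-115349101 (Cox6a1), chr7:30626110-30626168 (Cox6b1), chr4:116075048-116075106 (Uqcrh) and chrX:20617796-20617856 (Ndufb11), all on the minus strand, and at chr10:128083297-128083356 on the plus strand (Atp5b). In Cox6b1, Uqcrh and Atp5b the capitals are the reverse complement of the motif as spelled above. A match is a description of the letters and not a site. The median log2 fold change was -0.076 over the 20 genes with the NRF1 letters and -0.13 over the 47 without, -0.091 and -0.12 for the ETS letters, and -0.13 and -0.12 for the YY1 letters.

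Genes around the chain were read from lists of their own, and none passed the test in any list. A list of subunits and partner proteins that the name rule missed, among them the electron carrier Cycs, the ATP synthase inhibitor Atpif1 and the cristae protein Minos1, was lower in 6 of 6. Its median log2 fold change was -0.15, and -0.12 with 5 lower with the sample set in the model. The ATP synthase proteins 2010107E04Rik (-0.33, SE 0.146) and Usmg5 (-0.30, SE 0.163) had the lowest p-values, with values of -0.15 and -0.16 without the second set, and cytochrome c itself, Cycs, had 3660 ± 679 in WT and 3289 ± 353 in K187R (SD, n = 4 each). Mitochondrial ribosomal proteins, which translate the messages of the 13 mitochondrial genes, were lower in 66 of 77 with a median of -0.072. With the sample set in the model they were lower in 60, with a median of -0.044. Mrps18c had 1087 ± 141 in WT and 908 ± 81.9 in K187R and Mrpl14 826 ± 92.4 and 674 ± 134 (SD, n = 4 each).

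Assembly factors were divided, 29 lower and 20 higher of 49, with a median of -0.022 (-0.0064 with the sample set). Acad9, a factor for complex I, had 2455, 2430, 2418 and 2154 in WT and 2784, 2866, 2838 and 2428 in K187R, a log2 fold change of 0.21 (SE 0.0821, unadjusted p = 0.0326, adjusted p = 0.921 from limma). Ndufaf2, also a complex I factor, was at -0.24 (SE 0.118). Genes that copy, transcribe and stabilise mitochondrial RNA were divided too, 18 lower and 14 higher of 32, with a median of -0.021 (-0.016 with the sample set). Slirp, which protects mitochondrial messages, had 1294 ± 169 in WT and 1050 ± 104 in K187R (SD, n = 4 each), with a fold change of -0.30 on the log2 scale (SE 0.120, unadjusted p = 0.0346, adjusted p = 0.921 from limma), which was -0.15 without the second set. Top1mt, the mitochondrial topoisomerase, was at 0.22 (SE 0.107) and had every K187R sample above every WT sample, and Tfam, which packs and transcribes mitochondrial DNA, was at -0.012 (SE 0.102).

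Among 13 regulators of nuclear respiratory genes 4 were lower and 9 higher, with a median of 0.038 (0.025 with the sample set). Ppargc1b, a coactivator of respiratory genes, had 292, 345, 324 and 344 normalized counts in WT and 406, 423, 471 and 385 in K187R. The groups did not overlap, and the log2 fold change was 0.37 (SE 0.115, unadjusted p = 0.0106, adjusted p = 0.921 from limma). Its relative Pprc1 was at 0.16 (SE 0.115), whereas Nrf1 (0.045, SE 0.0663), Gabpa (-0.016, SE 0.154) and Esrra (0.038, SE 0.129) were closer to 0. Of the other mitochondrial RNA genes 12 were tested and 10 were lower, with a median of -0.16, and 8 were lower with a median of -0.032 with the sample set in the model. The large ribosomal RNA mt-Rnr2 had 188590 ± 16398 in WT and 168820 ± 20579 in K187R (SD, n = 4 each), with a fold change of -0.16 on the log2 scale (SE 0.111) that was -0.037 without the second set, and the tRNA gene mt-Tl1 was at -0.30 (SE 0.218). The 12 nuclear genes that share windows with the mitochondrial members were lower in 9, with a median of -0.081, but in 6, with a median of 0.0090, with the sample set in the model. Among them the lowest p-values were those of Gm13339 (0.37, SE 0.203) and Gm11407 (-0.41, SE 0.427).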

How the data were processed

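RNA was sequenced from Th17 cells with WT-ROR-γt (4 samples) or K187R-ROR-γt (4 samples); groups and replicate numbers come from the labels. Per the paper's methods the libraries were made with a poly-A kit (KAPA), whereas the labels name a TruSeq kit, and reads were trimmed with Cutadapt, aligned to GRCm38 with HISAT2 and counted with featureCounts on GENCODE M15 before DESeq2. Versions, strand setting and handling of reads with several matches are not given in the sources used here. Deposited was 1 signal per gene and sample, a normalized count: the authors divided the reads of a gene by 1 size factor per sample (0.842 to 1.18). Dividing by what 1 read was worth gave whole numbers for 100% of the values (tolerance 0.01 of a read).

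The main test was chosen for the values as deposited, which are normalized and not whole reads. Log2(normalized count + 1) was fitted with limma (lmFit, eBayes with trend, two-sided) for all 16982 genes that averaged 10 or more. P-values were adjusted by the Benjamini-Hochberg method over all of them, with a threshold of 0.05. Such fold changes understate changes of low genes. DESeq2 and the quasi-likelihood test of edgeR were run on the recovered reads of the same genes, and called 31 and 0 genes. Exon lengths, GC content (median over a gene's transcripts) and positions are from GENCODE M21, which holds all 91 members and 22784 of the listed identifiers; 45 are not in it.

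The members and lists were chosen with earlier results of these data known. Genes are named by a rule: all mt- and Sdh members, the 2 most abundant nuclear members of each other complex, the 4 highest and 4 lowest log2 fold changes, members whose groups do not overlap or that any tool calls, tissue isoforms, and the 2 lowest p-values of each other list; others were named after their values were seen (Ndufa1, Cox8a, Ndufs7, Ndufa11, Atp5g2, Cycs, Atpif1, Minos1, Tfam, Nrf1, Gabpa, Esrra and the promoter examples). Samples with the same replicate number resembled each other for numbers 1, 2 and 4 (correlations of deviations 0.59, 0.66 and 0.63). Each of these WT samples matched the K187R sample of its own number best. Number 3 did not pair its samples (-0.092), and the main fit used no pairing. The scripts were tested on simulated data. Python 3.11.15, R 4.3.3, DESeq2 1.42.0, edgeR 4.0.16 and limma 3.58.1 were used. Intervals and floors cover counting error only. Some results are not reported here.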

Additional observations from a re-analysis of the deposited data

Results flagged for a closer look

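Of 140 groups of 4 samples examined for a sample far from its group, 4 were past the 95% critical value of Dixon's test, where chance gives about 1 in 20, or 7. Acad9 had 2154 normalized counts in WT replicate 4 against 2418 to 2455 in the other WT samples, and Ndufaf2 had 524 there against 661 to 686. Cox4i2 had 1.19 normalized counts, 1 read, in WT replicate 1 and 0 in the other WT samples. The mean log2 level of the mitochondrial members relative to that of the nuclear members was -0.28 in WT replicate 3 against 0.030 to 0.061 in the other WT samples, and with the 7 high mitochondrial genes alone WT replicate 3 (-0.12) lay between WT replicates 2 (-0.17) and 1 (0.0050).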

How the results depend on the processing

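The numbers of genes called, the mitochondrial and nuclear medians, their difference in mean level and the fold changes of named genes were recomputed under up to 20 alternatives, as far as each applies, of which the sample set as a factor and leaving out the samples numbered 4 or the second set were chosen after the data were seen. The number of members called was 0 in all of them. Over all genes 0 were called in limma (746 at an unadjusted p-value under 0.05) and in edgeR (729), 31 in DESeq2, 1 with the sample set, 4 without the samples numbered 4, and 0 to 4 with 1 sample left out; the 4 arose without WT replicate 4. The cause was not tested. The nuclear median ranged from -0.19 to -0.052, the mitochondrial median from -0.11 to 0.066, turning positive under quantile normalization (0.017), with the sample set (0.030), without K187R replicate 3 (0.054) and without the second set (0.066). With 1 sample left out the nuclear median was -0.16 to -0.075, the mitochondrial one -0.11 to 0.054, and their difference in mean level -0.030 to 0.26. Members at an unadjusted p-value under 0.05 from limma rose from 3 to 21 without WT replicate 4 and to 27 without the samples numbered 4. The rise was not confined to the members. Over all genes tested the number rose from 746 to 2181 without WT replicate 4, and it was also above 746 without the samples numbered 4.

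With the replicate number as a block, 0 genes were called and the nuclear median was -0.12, so the block changed no call. At an unadjusted p-value under 0.05 from limma were 11 members and 2046 of all genes, against 3 and 746 in the main fit. Number 3 did not pair its samples (correlation -0.092).

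Of 47 named genes, 30 kept their direction throughout and none passed the threshold anywhere. Reversals under quantile normalization were mt-Cytb 0.030, mt-Nd1 0.096 and mt-Nd4 0.018. With the sample set they were mt-Co3 0.034, mt-Cytb 0.030, mt-Nd1 0.0021, mt-Nd4 0.031 and mt-Nd5 0.016. Without the samples numbered 4 they were Sdha -0.0060 and mt-Atp6 -0.27. Without the second set they were Cox4i1 0.012, Cox7a2l 0.055, Pprc1 -0.028, Sdha -0.017, Sdhc 0.013, Sdhd 0.0058, mt-Atp8 0.79, mt-Co3 0.38, mt-Nd4 0.0039, mt-Nd5 0.032 and mt-Nd6 0.079. With 1 sample left out they ranged from -0.035 to 0.10 for Ndufa13, -0.020 to 0.030 for Sdha, -0.11 to 0.016 for Sdhc, -0.13 to 0.37 for mt-Atp6, -0.33 to 0.35 for mt-Atp8, -0.25 to 0.51 for mt-Co2, -0.37 to 0.27 for mt-Co3, -0.11 to 0.070 for mt-Cytb, -0.11 to 0.0079 for mt-Nd1, -0.032 to 0.13 for mt-Nd2, -0.17 to 0.048 for mt-Nd4, -0.083 to 0.054 for mt-Nd5 and -0.23 to 0.011 for mt-Nd6. A mean of at least 50 left out Cox7a1, Gm11407 and Gm13339. Depth limits the low isoforms, Cox4i2 and Ndufa4l2 among them, which lie near 3 reads. It also limits Gm11407, which had 4.45 normalized counts in K187R replicate 4.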
